A study of Rattus norvegicus with 12 samples.

Results

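The 6 genes described here encode the contractile proteins by which heart muscle of the left ventricle (LV) is most often recognised, namely Myh6, Myh7, Acta1, Actc1, Tnni3 and Tnnt2. They were chosen by identifier, as ENSRNOG00000025757 for Myh6, ENSRNOG00000016983 for Myh7, ENSRNOG00000017786 for Acta1, ENSRNOG00000008536 for Actc1, ENSRNOG00000018250 for Tnni3 and ENSRNOG00000033734 for Tnnt2, and they are 6 of the 34733 rows in each count file. The files hold identifiers without symbols, so each symbol rests on this assignment. A row was to be left out if its mean was under 100 CPM (counts scaled to a common library size, as explained below), too low for an abundant gene of the ventricle, and 0 of 6 were. RNA was sequenced from Sprague-Dawley rat pups, of both sexes by the methods of the study, after abdominal aortic banding surgery (ABS), which ties a suture around the abdominal aorta, or after sham surgery, in both cases shortly after birth. Hearts were collected on postnatal day 3 (P3) or postnatal day 7 (P7), with 3 libraries in each of the 4 groups, ABS P3, sham P3, ABS P7 and sham P7. By the methods, blood pressure was taken only at later ages, so the load on these ventricles is not known. The labels give myocardiocytes of the left ventricle as the source, and the methods give the left ventricle.

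A sarcomere, the contractile unit of a muscle cell, is built of thick filaments of myosin and thin filaments of actin. Myh6 encodes the fast alpha heavy chain of cardiac myosin and Myh7 the slow beta heavy chain, and the rodent ventricle is known to pass from mostly beta before birth to mostly alpha after it. Acta1 encodes skeletal alpha-actin, which the young heart also uses, and Actc1 encodes cardiac alpha-actin. Tnni3 and Tnnt2 encode the inhibitory subunit and the tropomyosin-binding subunit of cardiac troponin, the calcium switch on the thin filament, and Tnni3 is known to take over from a slow skeletal form around birth. In adult rodents, a return of Myh7 and Acta1 is a familiar sign of pressure overload.

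Total counts were 14268210 to 17286278 per library, and 4.00% to 5.30% of them fell on the 6 genes. Every one of them stood among the 45 most abundant rows in every library, with 27967 to 338655 counts, so that the counting error of a single value was at most 0.598%. Libraries differed far more than that at P3. The number of rows with at least 1 count was 15266, 15719 and 17530 in ABS replicates 1, 2 and 3 of P3 and 18359, 15451 and 17259 in sham replicates 1, 2 and 3, but 18579 to 18982 in the 6 libraries of P7. Values below are CPM scaled by the TMM method of edgeR, which brings libraries of different composition to a common scale. Fold changes come from the quasi-likelihood test of edgeR, with p-values adjusted by the Benjamini-Hochberg method over all genes of the comparison. In bulk RNA, fewer cardiomyocytes and less RNA per cardiomyocyte cannot be told apart. The 2 myosin genes resemble each other closely in sequence, as do the 2 actin genes, so reads may have been assigned to the wrong member of a pair. The files hold no transcript lengths, so levels are compared between libraries and not between genes, and a share is a share of counts and not of molecules.

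**Figure D1:**
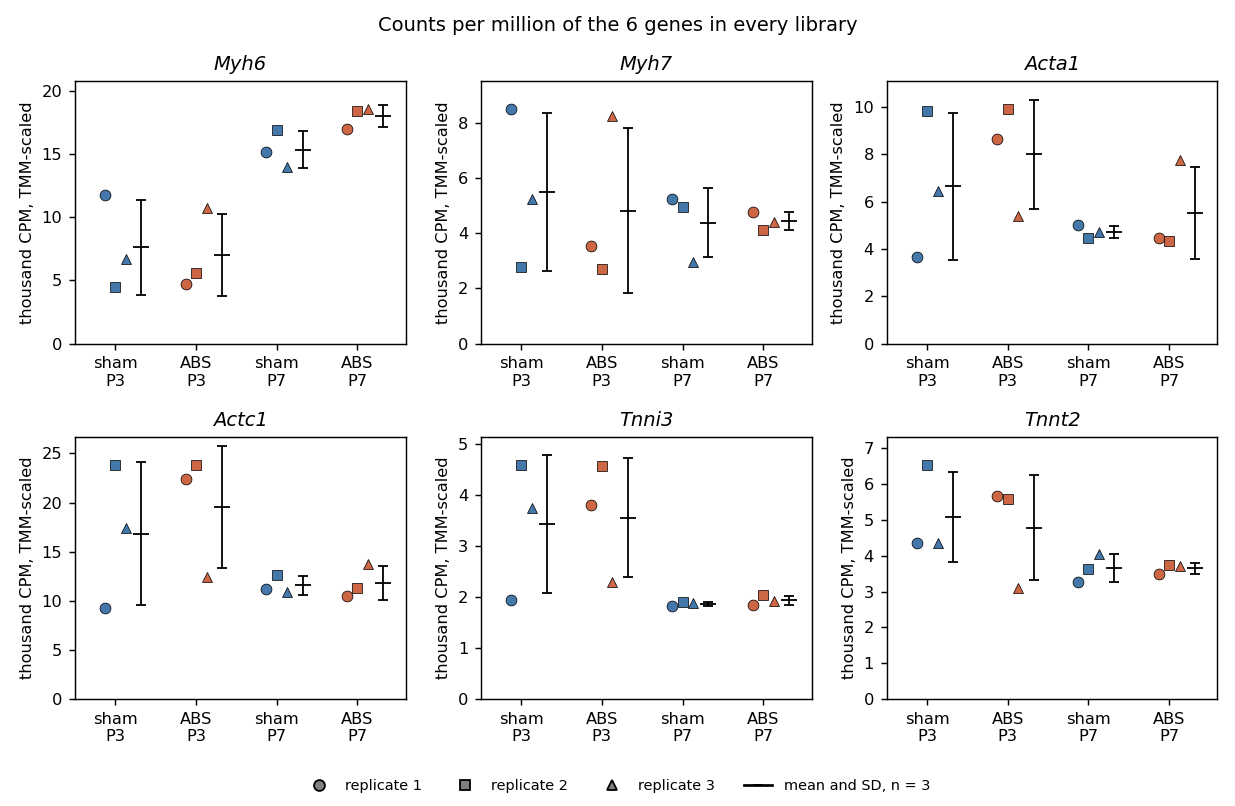
Each panel plots 1 gene, with the 4 groups on the horizontal axis and kilo-CPM (TMM-scaled) on the vertical axis from 0, each symbol being 1 library and the bar the mean with SD of 3 libraries. Myh6 was at 4447 to 11758 CPM in the 6 libraries of P3 and at 13960.4 to 18564 CPM in the 6 of P7, while the thin filament genes were widely spread at P3.

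Without adjustment for detected rows, Myh6 had the largest fitted day difference of the 6 genes in both surgery groups. It was at 11758, 4447 and 6679 CPM in sham replicates 1, 2 and 3 of P3 and at 15181, 16925 and 13960.4 CPM in those of P7. In the ABS group, it was at 4746, 5571 and 10733 CPM at P3 and at 17026, 18448 and 18564 CPM at P7. All 6 libraries of P7 thus lay above all 6 of P3. Within a surgery group, the days did not overlap, in either direction, for 30% of all genes tested in sham hearts and 27.9% in ABS hearts. The share of all genes that separate the days over both surgery groups was not computed. The fitted fold of P7 over P3 was 1.99 in sham hearts (log2 fold change 0.99, standard error 0.36, adjusted p = 0.295) and 2.50 in ABS hearts (log2 fold change 1.32, standard error 0.33, adjusted p = 0.233). Neither passed the adjusted threshold of 0.05, and the unadjusted p were 0.0297 and 0.00528. With detected rows as a covariate, the log2 fold change of Myh6 was 0.34 in sham hearts (adjusted p = 0.547) and 0.08 in ABS hearts (adjusted p = 0.863). Detected rows were higher in every P7 library than in any P3 library. Fits of the days with this covariate therefore cannot tell day from detected rows, for any gene.

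The CPM of Myh7 overlapped between the days, and its fitted day difference depended on the fit. Sham libraries held 8509, 2769 and 5237 CPM at P3 and 5261, 4951 and 2961 CPM at P7. ABS libraries held 3543, 2693 and 8245 CPM at P3 and 4785, 4116 and 4429.9 CPM at P7. Within both surgery groups the ranges of the days crossed, with the highest and the lowest value of all 12 libraries at P3. The log2 fold change of P7 over P3 was -0.34 in sham hearts (95% interval -1.37 to 0.69, adjusted p = 0.646) and -0.15 in ABS hearts (95% interval -1.12 to 0.81, adjusted p = 0.83). Its direction depended on a single library in both surgery groups, and in ABS hearts also on the method. In sham hearts, the log2 fold change was 0.09 without sham replicate 1 of P3. In ABS hearts, it was 0.45 with an adjusted p of 0.0294 without ABS replicate 3 of P3. With all ABS libraries kept, plain library totals in place of TMM gave 0.01 and a replicate block gave 0.0079. Voom of limma, with sample quality weights, gave 0.42. With detected rows as a covariate, the log2 fold change was -1.04 in sham hearts (adjusted p = 0.273) and -1.61 in ABS hearts (adjusted p = 0.0417), the latter in a fit in which 7.22% of all genes passed. Here too, day cannot be told from detected rows.

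The ratio of both myosins within a library depends on neither the library total nor the scaling. Myh7 made up 42.0%, 38.4% and 44.0% of the Myh6 and Myh7 counts in sham replicates 1, 2 and 3 of P3, and 42.7%, 32.6% and 43.4% in ABS replicates 1, 2 and 3. At P7 its share was 25.7%, 22.6% and 17.5% in the sham libraries and 21.9%, 18.2% and 19.3% in the ABS libraries. The lowest library of P3 stood above the highest of P7, and the 95% Wilson interval of a single library's share, which covers counting error alone, was at most 0.606 percentage points wide. The mean share was 41.4% ± 2.83 (SD, n = 3) in sham P3 against 22.0% ± 4.16 (SD, n = 3) in sham P7, and 39.6% ± 6.08 (SD, n = 3) in ABS P3 against 19.8% ± 1.91 (SD, n = 3) in ABS P7. Each of these comparisons of 3 with 3 libraries gave p = 0.1 by an exact permutation test, two-sided, the smallest it can give. Over both surgery groups, the P7 minus P3 difference was -19.6 percentage points (exact permutation test with days exchanged within each surgery group, two-sided, p = 0.005, the smallest of its 400 arrangements). In all, 21 tests of ratios were run, and adjusted over them this p was 0.105, so the difference did not pass the correction although it separated all libraries. Of these tests, 12 cannot go below 0.1.

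Every P7 library had more detected rows than every P3 library, so day and detected rows cannot be told apart for this share. Over all 12 libraries, its correlation with detected rows was -0.69 (Pearson) or -0.84 (Spearman). A limit of 16000 detected rows was set after seeing the data. The P3 libraries under it (ABS replicates 1 and 2 and sham replicate 2) had Myh7 shares of 32.6% to 42.7%. The other 3 had 42.0% to 44.0%, and all P3 libraries lay above the highest P7 share of 25.7%. Within P7, the share was lower in libraries with more detected rows, with correlations of -0.96 (Pearson) and -0.94 (Spearman) over 6 libraries, though these spanned only 18579 to 18982 rows. Within the 6 libraries of P3, which spanned more rows, the correlations had the other sign, at 0.50 (Pearson) and 0.26 (Spearman).

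**Figure D2:**
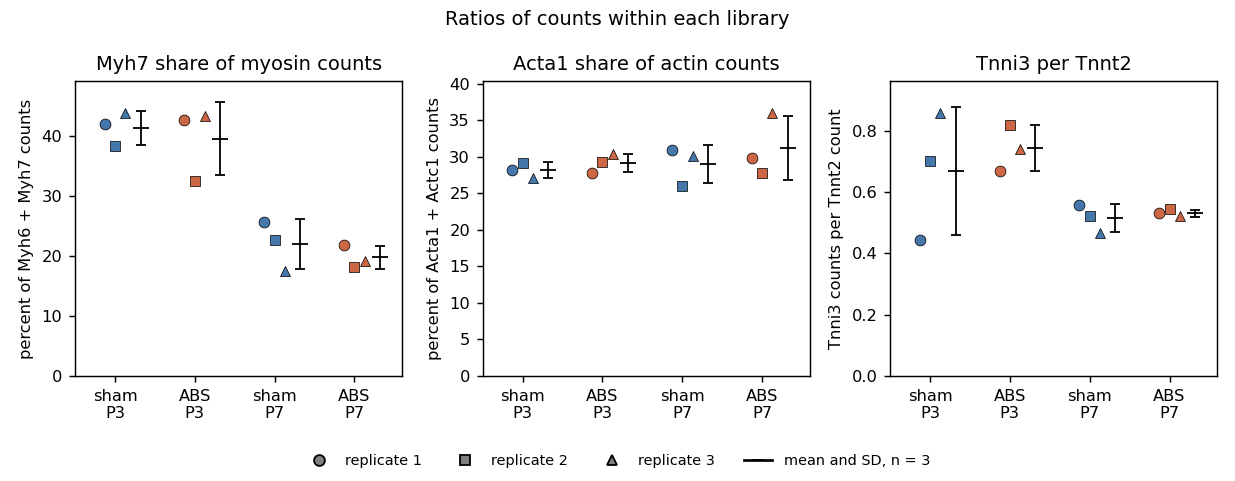
The 3 panels plot, from left to right, the Myh7 share of myosin counts in percent, the Acta1 share of actin counts in percent and the number of Tnni3 counts per Tnnt2 count, with 1 symbol per library and bars for mean and SD of 3 libraries. The Myh7 share was 32.6% to 44.0% at P3 and 17.5% to 25.7% at P7, while the Acta1 share lay between 26.0% and 36.1% in every group.

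Between ABS and sham hearts, no difference in the myosin pair passed the adjusted threshold on either day. At P3, an adjusted p under 0.05 was found for 0% of 14222 genes, an unadjusted one for 0.33%, and groups without overlap for 3.45%, and neither myosin gene was among them. Myh6 had a log2 fold change of ABS over sham of -0.10 (95% interval -1.23 to 1.03) and Myh7 one of -0.17 (95% interval -1.49 to 1.15), so at this spread differences of about 2-fold either way were not detectable. The sign of both depended on single libraries, and without sham replicate 1 the values were 0.35 and 0.28. With detected rows as a covariate, they were 0.32 and 0.31.

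At P7, Myh6 was the only one of the 6 genes with an unadjusted p under 0.05. The lowest ABS library, at 17026 CPM, stood just above the highest sham library, at 16925 CPM. The log2 fold change was 0.23 (standard error 0.10, 95% interval 0.01 to 0.45), with an unadjusted p of 0.0404 and an adjusted p of 1. The unadjusted p was 0.0916 without ABS replicate 2, 0.114 without sham replicate 1, 0.158 without sham replicate 3, 0.0578 with detected rows as a covariate and 0.533 with all 12 libraries in the fit, with Myh6 higher in ABS hearts in each. In the other refits the unadjusted p stayed under 0.05, from 0.01 with DESeq2 to 0.0477 with a replicate block. The adjusted p was at least 0.787 in every refit. At P7, an adjusted p under 0.05 was found for 0% of 14635 genes, an unadjusted one for 3.4%, and groups without overlap for 8.76%. For Myh7 at P7, the log2 fold change was 0.02 (95% interval -0.48 to 0.51), with ABS libraries inside the range of the sham libraries. The Myh7 share of myosin counts differed between ABS and sham hearts by -1.85 percentage points at P3 (exact permutation test, two-sided, p = 0.8) and by -2.14 percentage points at P7 (exact permutation test, two-sided, p = 0.6). The mean of both was -1.99 percentage points, with p = 0.42 by an exact permutation test within days, two-sided, and p = 0.84 when adjusted over the 21 ratio tests. The surgery groups overlapped on both days, and without ABS replicate 2 the difference at P3 was 1.66 percentage points, of the other sign.

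The levels of Acta1 and Actc1 ran with those of Tnni3 and Tnnt2 across the 6 libraries of P3 (Pearson r of 0.71 to 0.98, Spearman rho of 0.66 to 0.94). Across those of P7, Pearson r was 0.04 to 0.30 and Spearman rho -0.26 to 0.66, the highest rho being that of Actc1 with Tnni3. The start regions of these genes are shown for their motifs. The 250 bases before the annotated gene start are given for the 4 thin filament genes from RefSeq (assembly GRCr8), 5′ to 3′ on the strand of the gene, with capitals for matches on either strand to any of 4 motifs. The M-CAT element was searched for with the letters CATTCC. The site of GATA factors was searched for with the letters AGATAA. The box bound by the TATA-binding protein was searched for with the letters TATAAA. The CArG box, which serum response factor binds, was the last of the 4. It was searched for as CC, then 6 letters that are each A or T, then GG. Only exact matches were counted, and no match overlapped another.
Acta1 (chr19:68784195-68784444, minus strand): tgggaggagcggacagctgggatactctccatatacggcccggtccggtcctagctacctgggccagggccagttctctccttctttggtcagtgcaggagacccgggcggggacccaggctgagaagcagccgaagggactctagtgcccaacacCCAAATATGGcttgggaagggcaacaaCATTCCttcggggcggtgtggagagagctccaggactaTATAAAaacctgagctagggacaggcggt
Actc1 (chr3:121271828-121272077, minus strand): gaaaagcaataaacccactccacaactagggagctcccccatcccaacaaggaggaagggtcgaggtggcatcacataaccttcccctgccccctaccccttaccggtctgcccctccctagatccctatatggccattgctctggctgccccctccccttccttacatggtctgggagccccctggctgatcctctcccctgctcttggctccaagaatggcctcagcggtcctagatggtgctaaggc
Tnni3 (chr1:78342321-78342570, plus strand): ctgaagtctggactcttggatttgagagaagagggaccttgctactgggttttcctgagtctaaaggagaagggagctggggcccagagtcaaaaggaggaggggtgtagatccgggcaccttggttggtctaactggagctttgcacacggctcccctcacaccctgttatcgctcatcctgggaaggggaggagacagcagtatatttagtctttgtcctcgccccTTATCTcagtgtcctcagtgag
Tnnt2 (chr13:49818873-49819122, plus strand): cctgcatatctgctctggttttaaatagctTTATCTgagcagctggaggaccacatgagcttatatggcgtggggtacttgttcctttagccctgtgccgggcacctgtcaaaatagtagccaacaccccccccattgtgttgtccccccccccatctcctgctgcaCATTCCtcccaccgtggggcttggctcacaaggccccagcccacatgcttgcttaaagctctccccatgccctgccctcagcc
Acta1 held a CArG box 94 to 85 bases, an M-CAT element 67 to 62 bases and a TATA box 29 to 24 bases before the start. Tnnt2 held an M-CAT element 83 to 78 bases and a GATA site 220 to 215 bases before it (on the other strand), and Tnni3 a GATA site 22 to 17 bases before it (on the other strand). Actc1 held 0 of the 4 as an exact match in this window, and near matches were not searched for. Of the 33469 RefSeq windows of this length, 1.5% held a CArG box, 12.1% an M-CAT element, 12.9% a TATA box and 10.3% a GATA site. The RefSeq windows of Myh6 and Myh7 start inside the annotated gene and are not shown.

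Acta1 was at 3653, 9837 and 6456 CPM in sham replicates 1, 2 and 3 of P3 and at 4992, 4459 and 4697 CPM in those of P7. The ABS libraries were at 8659.8, 9906 and 5412 CPM at P3 and at 4448, 4335 and 7767 CPM at P7. ABS replicate 3 of P7 stood apart from the other 5 libraries of that day, which lay between 4335 and 4992 CPM. The log2 fold change of ABS over sham was 0.28 at P3 (95% interval -0.79 to 1.36) and 0.23 at P7 (95% interval -0.34 to 0.80), with an adjusted p of 1 on both days. Without ABS replicate 3, the value at P7 was -0.11, so the direction rested on that library.

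Actc1 was at 9301, 23810.1 and 17409.9 CPM in the sham libraries of P3 and at 22443, 23857 and 12421 CPM in the ABS libraries. At P7 it was at 11163, 12660.4 and 10884 CPM after sham surgery and at 10458, 11288 and 13767 CPM after ABS. The P3 libraries ranged from below to far above those of P7, and the surgery groups overlapped on both days. The log2 fold change of ABS over sham was 0.24 at P3 (95% interval -0.86 to 1.33) and 0.03 at P7 (95% interval -0.23 to 0.29). For P7 over P3, it was -0.57 in sham hearts (unadjusted p = 0.162) and -0.78 in ABS hearts (unadjusted p = 0.0421, adjusted p = 0.276), and for Acta1 it was -0.53 and -0.59 (unadjusted p = 0.201 and 0.137).

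At P3, the balance of the actins was steadier than either level. In sham hearts of P7 it was not, as the levels themselves varied little there (coefficients of variation of 5.66% for Acta1 and 8.26% for Actc1). Acta1 made up 28.2% ± 1.09 (SD, n = 3) of the Acta1 and Actc1 counts in sham P3, 29.2% ± 1.26 (SD, n = 3) in ABS P3, 29.0% ± 2.61 (SD, n = 3) in sham P7 and 31.2% ± 4.33 (SD, n = 3) in ABS P7. The 12 libraries lay between 26.0% and 36.1%, the highest being ABS replicate 3 of P7, and a single library's 95% Wilson interval was at most 0.371 percentage points wide. The share differed between P7 and P3 by 1.46 percentage points over both surgery groups (exact permutation test within surgery groups, two-sided, p = 0.375, adjusted p = 0.84) and between ABS and sham by 1.60 percentage points over both days (exact permutation test within days, two-sided, p = 0.345, adjusted p = 0.84).

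Of the 4 thin filament genes, Tnni3 had the largest fitted day difference in both surgery groups, without adjustment for detected rows (with it, -0.11 in sham and 0.26 in ABS hearts). It was at 1946, 4602 and 3753 CPM in the sham libraries of P3, at 3809, 4583 and 2296 CPM in the ABS libraries of P3, at 1829.9, 1902 and 1887 CPM in the sham libraries of P7 and at 1849, 2036 and 1935 CPM in the ABS libraries of P7. Within each surgery group, every library of P3 stood above every library of P7, but sham replicate 1 of P3 lay below ABS replicate 2 of P7. Days without overlap, in either direction, were found for 30% of all genes tested in sham and 27.9% in ABS hearts. The log2 fold change of P7 over P3 was -0.91 in sham hearts (standard error 0.34, adjusted p = 0.296) and -0.93 in ABS hearts (standard error 0.29, adjusted p = 0.237), with unadjusted p of 0.0325 and 0.0161. Between ABS and sham hearts of P7, the difference was narrowly bounded, at 0.05 (95% interval -0.12 to 0.22).

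Tnnt2 was at 4371, 6544 and 4363 CPM in the sham libraries of P3 and at 5676, 5588 and 3090.5 CPM in the ABS libraries. At P7 it was at 3278, 3629 and 4049 CPM and at 3482, 3745 and 3712 CPM, respectively. The sham libraries of the 2 days did not overlap, which held for 30% of all genes tested in sham hearts. In contrast, ABS replicate 3 of P3 lay below every ABS library of P7. The log2 fold change of P7 over P3 was -0.51 in sham hearts (adjusted p = 0.342) and -0.45 in ABS hearts (adjusted p = 0.397). ABS over sham was -0.07 at P3 (95% interval -0.94 to 0.81) and -0.0028 at P7 (95% interval -0.21 to 0.21).

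Per Tnnt2 count, the libraries held 0.670 ± 0.209 Tnni3 counts (SD, n = 3) in sham P3, 0.745 ± 0.0746 (SD, n = 3) in ABS P3, 0.516 ± 0.0466 (SD, n = 3) in sham P7 and 0.532 ± 0.0113 (SD, n = 3) in ABS P7. Sham replicate 1 of P3, at 0.445, was the lowest of all 12 libraries, and the other 5 libraries of P3 lay between 0.671 and 0.860, above the highest P7 library at 0.558. The P7 minus P3 difference was -0.183 over both surgery groups (exact permutation test, two-sided, p = 0.02), which did not pass the correction over the ratio tests (adjusted p = 0.21).

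The spread at P3 touched all 6 genes, and the thick and thin filament genes moved in opposite directions in it. Coefficients of variation within a group of 3 libraries were 24.7% to 62.0% at P3, where the median over the 1597 rows with at least 100 CPM on average was 27.2% in ABS and 27.8% in sham hearts. At P7, they were 2.03% to 35.3%, with medians over those rows of 7.00% and 5.38%. Across the 6 libraries of P3, Myh6 and Myh7 ran together (Pearson r of log2 CPM 0.95, Spearman rho 0.83), as did Acta1 and Actc1 (Pearson r 0.99, Spearman rho 1), whereas Myh6 and Actc1 ran in opposite directions (Pearson r -0.97, Spearman rho -0.83). These values describe 6 libraries of 2 surgery groups, and the genes share each library's composition. At P7, the correlation of Myh6 with Myh7 was 0.44 (Pearson) or -0.09 (Spearman), and that of Myh6 with Actc1 was 0.51 or 0.54.

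The number of detected rows moved with this pattern. Summed Myh6 and Myh7 counts per summed Acta1 and Actc1 count, a ratio added after seeing the data, were 0.266, 0.245 and 1.06 in ABS replicates 1, 2 and 3 of P3 and 1.56, 0.214 and 0.499 in sham replicates 1, 2 and 3. The 3 libraries with under 16000 detected rows had the 3 lowest values. The ratio was 1.07 to 1.46 in ABS and 1.09 to 1.28 in sham libraries of P7. Across the 6 libraries of P3, its correlation with detected rows was 0.92 (Pearson) or 0.83 (Spearman). The part of library state in the P3 levels of the members was not tested, and it touches every comparison that uses P3 libraries. Within the P3 libraries under 16000 detected rows (2 ABS, 1 sham), the log2 ratio of mean CPM of ABS over sham was 0.21 for Myh6, 0.17 for Myh7, -0.08 for Acta1, -0.04 for Actc1, -0.13 for Tnni3 and -0.22 for Tnnt2. Within the others (1 ABS, 2 sham), it was 0.22, 0.26, 0.10, -0.10, -0.31 and -0.50 in the same order. Both sets gave the same sign for 5 of the 6 genes, which are values without a test. The limit of 16000 rows was set after seeing the data, and each set had only a single library of ABS or of sham. The genes were correlated across the P3 libraries, so their signs are not separate observations.

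**Figure D3:**
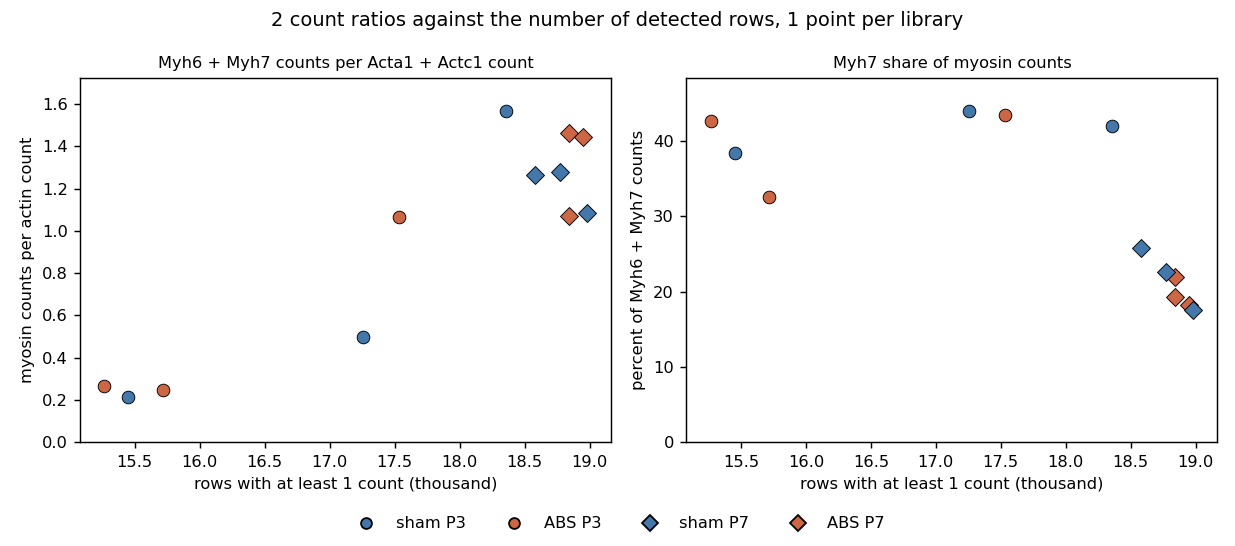
Each point is 1 library, with the number of rows with at least 1 count, in kilo-rows, on the horizontal axis, which does not start at 0, and with myosin counts per actin count (left) or the Myh7 share of myosin counts in percent (right) on the vertical axis, circles for P3 and diamonds for P7. On the left, the 3 P3 libraries with the fewest detected rows lie at 0.214 to 0.266, and on the right P3 and P7 separate, at 32.6% and above against 25.7% and below.

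Over the 5 comparisons, 0 of the 6 genes had an adjusted p under 0.05 with edgeR, and between the days the other tools gave more. DESeq2 gave 1, Myh6 in ABS hearts (adjusted p = 0.0128), where 3.22% of all genes passed. Voom of limma, with sample quality weights, gave 4 of the 6 genes in sham hearts and 5 in ABS hearts, where 45.9% and 46.8% of all genes passed. For P7 over P3, 2 of the 6 genes had an unadjusted p under 0.05 in sham hearts (Myh6 higher, Tnni3 lower) and 3 in ABS hearts (Myh6 higher, Actc1 and Tnni3 lower). Of all genes tested, 16.1% in sham and 17.7% in ABS hearts were under that threshold, and 0.00684% and 0.0138% were under the adjusted one. Groups did not overlap between the days for 3 of the 6 genes in sham hearts (Myh6, Tnni3 and Tnnt2) and for 2 in ABS hearts (Myh6 and Tnni3), where the share over all genes was 30% and 27.9%. The median log2 fold change of the 6 genes was -0.52 in sham and -0.52 in ABS hearts, against 0.01 and 0.01 over all genes. Plain library totals moved the latter medians to 0.22 and 0.23, and those of the 6 genes to -0.26 and -0.26. The sham comparison and the ABS comparison use different libraries.

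The difference between days in the effect of surgery was tested directly over all 12 libraries. No member passed the adjusted or the unadjusted threshold (0 of 6 for both), where 0% and 1.16% of the 15236 genes did. The log2 interaction was 0.35 for Myh6 (95% interval -0.77 to 1.46), 0.20 for Myh7 (95% interval -1.20 to 1.61), -0.04 for Acta1, -0.19 for Actc1, -0.01 for Tnni3 and 0.08 for Tnnt2. For the Myh7 share, the ABS minus sham difference at P7 was -0.293 percentage points away from that at P3 (exact permutation test, two-sided, p = 0.945). For the Acta1 share, it was 1.17 percentage points (exact permutation test, two-sided, p = 0.775), and for Tnni3 per Tnnt2 -0.0594 (exact permutation test, two-sided, p = 0.77).

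**Figure D4:**
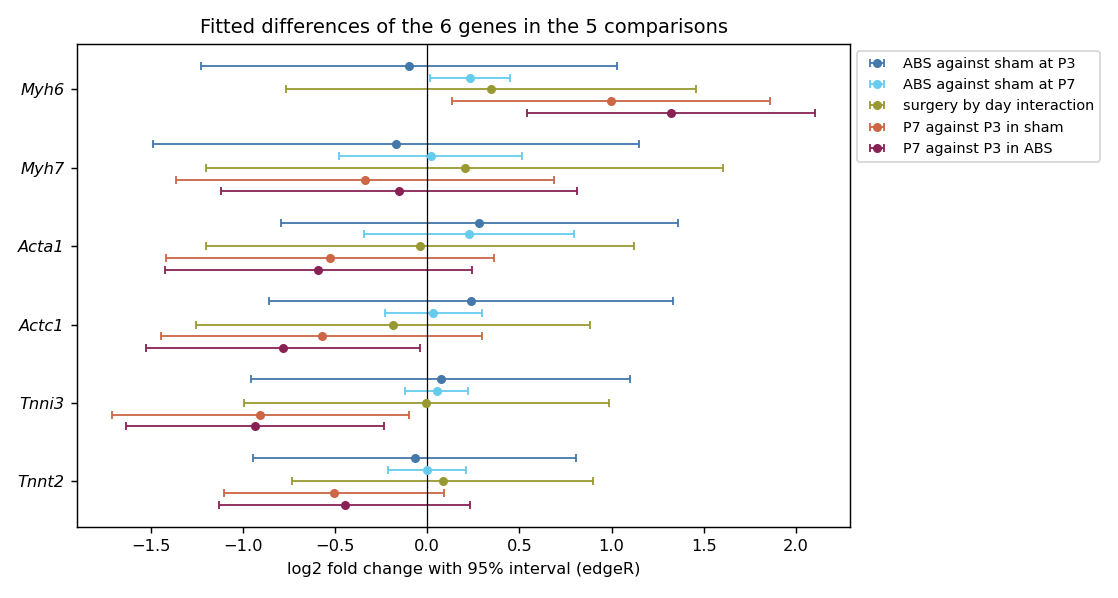
For each of the 6 genes, points give the log2 fold change on the horizontal axis in the 5 comparisons named in the legend, and bars the 95% interval of edgeR's fit. Intervals are narrowest for ABS against sham at P7, where all but that of Myh6 (0.01 to 0.45) include 0, and wider wherever P3 libraries enter.

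The calls for the days depended on 1 library in each group. Without sham replicate 1 of P3, 4 of the 6 genes passed the adjusted threshold in sham hearts (Myh6 higher with a log2 fold change of 1.42, and Acta1, Actc1 and Tnni3 lower with -0.84, -0.88 and -1.21). Without ABS replicate 3 of P3, all 6 passed in ABS hearts, with log2 fold changes of 1.74 for Myh6, 0.45 for Myh7, -0.81 for Acta1, -1.03 for Actc1, -1.18 for Tnni3 and -0.69 for Tnnt2. These 2 libraries had the highest numbers of detected rows at P3, and without them 4820 of 14979 genes (32.2%) and 7468 of 14915 genes (50.1%) passed. With detected rows as a covariate in the fit, the Myh6 and Myh7 values were those given above, and the day differences of the actins took the other sign, at 0.45 for Acta1 and 0.33 for Actc1 in sham hearts and at 0.53 and 0.50 in ABS hearts, as did those of Tnni3 and Tnnt2 in ABS hearts, at 0.26 and 0.80. As said for Myh6, such fits cannot tell day from detected rows.

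Outside the 6 genes, the row of at least 10 CPM with the pattern most like Myh6 over the 12 libraries was ENSRNOG00000016684, with a Pearson r of log2 CPM of 0.99 among 9127 rows. Its mean was 189 CPM in sham P3, 172 CPM in ABS P3, 277 CPM in sham P7 and 304 CPM in ABS P7. For Myh7, it was ENSRNOG00000015602, with a Pearson r of 0.93 and means of 458, 420.3, 398 and 408 CPM in the same order. These likenesses were picked as the highest of all rows and are descriptions.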

How the data were processed

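The deposited values are raw counts of reads per gene, which the authors made by discarding low-quality and adapter-bearing reads and counting the rest with featureCounts. The processing notes list HISAT2 2.0.5 and the mouse build names GRCm38 and mm10, although the rows are rat Ensembl identifiers (32883) and numbered rows (1850); the rat build and the strand setting are not given in the sources used here. Groups came from sample titles.

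Counts were tested with edgeR 4.0.16 in R 4.3.3 (TMM, filterByExpr, robust quasi-likelihood F test), on the 6 libraries of a comparison or on all 12 for the interaction, with a threshold of 0.05, and the fits were checked on made counts with known folds. Ratios were tested by exact permutation. Alternatives used DESeq2 1.42.0 and limma 3.58.1, other scalings and filters, a replicate block, detected rows as a covariate and each library left out. Nothing says that libraries came from separate litters, so p-values measure the spread between these libraries. Log2 CPM used a prior count of 2. All 6 members were named, with the rows most like Myh6 and Myh7 by rule. The members and lists were chosen with earlier results of these data known. As 0 identifiers matched the RefSeq table, further sarcomere genes and cell type markers were not analysed here.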

Additional observations from a re-analysis of the deposited data

How the results depend on the processing

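Of the refits of a member's log2 fold change, 399 kept its direction and its side of the adjusted threshold, 20 moved past the threshold and 61 turned direction; where a direction turned, the cause was not tested. With detected rows as a covariate, directions turned for ABS over sham at P3 to 0.32 for Myh6, 0.31 for Myh7, -0.021 for Acta1, -0.11 for Actc1 and -0.25 for Tnni3, and for the interaction to -0.12 for Myh6, -0.33 for Myh7, 0.30 for Acta1, 0.20 for Actc1 and 0.35 for Tnni3, and for P7 over P3 in sham hearts to 0.45 for Acta1 and 0.33 for Actc1, and for P7 over P3 in ABS hearts to 0.53 for Acta1, 0.50 for Actc1, 0.26 for Tnni3 and 0.80 for Tnnt2. With limma voom and quality weights they turned for ABS over sham at P3 to 0.27 for Tnnt2, and for ABS over sham at P7 to -0.039 for Actc1 and 0.0064 for Tnnt2, and for the interaction to -0.28 for Tnnt2, and for P7 over P3 in ABS hearts to 0.42 for Myh7. Plain library totals turned Myh7 for P7 over P3 in ABS hearts to 0.0051. The number of the 6 genes past the adjusted threshold was 4 with voom for P7 over P3 in sham hearts, and 1 with DESeq2, 5 with voom and 1 with the covariate (Myh7) in ABS hearts. Leaving out each library in turn gave 0 to 4 in sham hearts and 0 to 6 in ABS hearts. Those fits gave log2 fold changes for ABS over sham at P3 of -0.53 to 0.35 for Myh6, -0.78 to 0.28 for Myh7, -0.01 to 0.70 for Acta1, -0.056 to 0.59 for Actc1, -0.21 to 0.36 for Tnni3 and -0.22 to 0.17 for Tnnt2. Those fits gave log2 fold changes for ABS over sham at P7 of -0.20 to 0.17 for Myh7, -0.11 to 0.37 for Acta1, -0.10 to 0.12 for Actc1 and -0.076 to 0.080 for Tnnt2. Those fits gave log2 fold changes for the interaction of -0.12 to 0.75 for Myh6, -0.27 to 0.79 for Myh7, -0.45 to 0.23 for Acta1, -0.54 to 0.085 for Actc1, -0.29 to 0.26 for Tnni3 and -0.18 to 0.23 for Tnnt2. Those fits gave log2 fold changes for P7 over P3 in sham hearts of -0.65 to 0.094 for Myh7. Those fits gave log2 fold changes for P7 over P3 in ABS hearts of -0.43 to 0.45 for Myh7. For the Myh7 share, they gave differences of -3.78 to 1.66 for ABS over sham at P3 and -3.80 to 1.64 for the interaction. For the Acta1 share, they gave differences of -0.237 to 3.92 for ABS over sham at P7, -1.25 to 2.91 for the interaction, -0.0662 to 2.36 for P7 over P3 in sham hearts and -0.382 to 3.78 for P7 over P3 in ABS hearts. For Tnni3 per Tnnt2, they gave differences of -0.0369 to 0.171 for ABS over sham at P3, -0.00916 to 0.0369 for ABS over sham at P7, -0.155 to 0.0528 for the interaction, -0.0105 to 0.0932 for surgery over both days and -0.239 to -0.135 for day over both surgery groups. That last difference did not fall below p = 0.05 by an exact permutation test without sham replicate 3 of P3 and without sham replicate 2 or 3 of P7. The day difference of the Myh7 share over both surgery groups stayed between -21.4 and -18.5 percentage points. Same-numbered libraries did not deviate together in every pair (correlations of -0.45 to 0.36), and replicate numbers were treated as names only. With a replicate block, 0 of the 6 genes passed the adjusted threshold in any comparison, Tnnt2 went to 0.0021 for ABS over sham at P7 and Myh7 to 0.0079 for P7 over P3 in ABS hearts. Over the whole table, genes past the adjusted threshold with DESeq2 were 4 at P3, 10 at P7, 5 for the interaction, 410 for the sham days and 510 for the ABS days, and with voom 6707 and 6791 for the days, against 0, 0, 0, 1 and 2; those past an unadjusted p of 0.05 were 171, 406, 393, 2927 and 3132 with DESeq2. Counts at an unadjusted p of 0.05 also moved by over 1.5 times with the covariate (1603 against 47 at P3, 2108 against 176 for the interaction), with voom (1012 and 2040 for the same), with no filter (127 and 420), with the replicate block (30 and 114) and with all 12 libraries fitted together (415 at P3, 51 against 498 at P7), and leaving out 1 library gave 63 to 432 at P3, 443 to 938 at P7, 128 to 1151 for the interaction, 928 to 7029 for the sham days and 982 to 8413 for the ABS days. The covariate gave 8 and 1047 adjusted calls for the sham and ABS days, in fits that cannot tell day from detected rows. Plain totals turned the split of unadjusted calls between the days from 869 higher and 1491 lower to 1249 and 708 in sham hearts, and from 904 and 1667 to 1277 and 846 in ABS hearts. Counting error was at most 0.598% for a single value. The biological coefficient of variation of the fits was 0.544 at P3 and 0.148 at P7.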
